A study of Mus musculus with 18 samples.

Results

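The Toll-like receptors of mouse bone marrow macrophages are described here, as the 10 genes Tlr1, Tlr2, Tlr3, Tlr4, Tlr5, Tlr6, Tlr7, Tlr8, Tlr9 and Tlr13. They were taken by symbol from a table of 16909 genes, and all 10 were in the table and among the 12465 genes with enough counts to test, Tlr5 only through its counts in Con. Poly(A) RNA was sequenced in 18 libraries of 4 groups: UVABs (n = 5), STSABs (n = 5), LPS (n = 5) and Con (n = 3). UVABs and STSABs macrophages were given apoptotic bodies (ABs), fragments of dying cells enclosed by membrane, from cells named hucMSC that were induced with UV or with STS; both are described as anti-inflammatory treatments. LPS, bacterial lipopolysaccharide, was the positive control for inflammation, and Con was the mock group. All groups share the species and the cell type. The labels give no strain, age, dose or time, and do not say whether the AB groups were also given LPS. Nor do they say that replicates came from separate cultures or animals, so the p-values refer to library-to-library spread alone, which may be technical.

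Toll-like receptors are membrane proteins that bind conserved microbial molecules and signal through adaptors of the MyD88 or TRIF kind to NF-kB and interferon regulatory factors. Tlr1, Tlr2, Tlr4, Tlr5 and Tlr6 sit mainly at the cell surface and bind lipopeptides, lipopolysaccharide or flagellin. Tlr3, Tlr7, Tlr8, Tlr9 and Tlr13 sit in endosomes, where they meet nucleic acids taken up by the cell, and macrophages are among the cells that carry most of the family.

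Levels are given as CPM (counts divided by the library total after TMM scaling, on a common scale), and changes as log2 fold changes with their standard error and a p-value adjusted over all 12465 genes; a gene is called when the adjusted p is under 0.05. Library totals ranged from 17588400 to 18675300 counts. TMM factors were 0.920 to 0.938 in UVABs, 0.925 to 0.939 in STSABs, 0.895 to 0.913 in LPS and 1.51 to 1.52 in Con, so levels in Con depend on the scaling more than the others. All 8 macrophage markers were well counted, with a summed level of 9840 to 10700 CPM in UVABs, 8610 to 10200 CPM in STSABs, 12000 to 13300 CPM in LPS and 10700 to 11600 CPM in Con. The second library of each AB group had been found apart from the others on principal components in earlier results, and results that rest on it are given with and without it.

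In LPS macrophages set against Con macrophages, most Toll-like receptor mRNAs differed in level, as did most genes tested. Tlr1, Tlr2, Tlr3, Tlr6, Tlr7, Tlr8 and Tlr9 rose, Tlr4 and Tlr5 fell, and Tlr13 did not pass the test, though with library totals alone Tlr8 and Tlr13 were called lower. So 9 of 10 receptors were called, 7 higher and 2 lower, where 83.0% of all genes tested were called, 40.0% higher and 43.0% lower. The number called is near this background and shows nothing particular to the family. In bulk RNA, fewer cells of a type and less RNA per cell cannot be told apart. In AB macrophages set against LPS macrophages, Tlr2, Tlr3, Tlr4, Tlr7 and Tlr13 fell with both kinds of bodies. For UVABs against LPS, 5 receptors were called lower and 0 higher, where 57.4% of all genes were called, 28.8% lower and 28.6% higher. For STSABs against LPS, 6 were called lower and 1 higher, where 57.4% of all genes were called, 29.0% lower and 28.4% higher. The additional calls with STSABs were Tlr8, lower, and Tlr5, higher; Tlr5 had 0 to 6 counts in each STSABs and LPS library, and with these 2 groups alone it was not tested and 0 receptors were higher. Without the second library of both AB groups, 5 receptors were lower and 0 higher in UVABs, and 6 lower and 1 higher in STSABs. With 10 receptors, the number called in each AB comparison is not far from the share of all genes. Nothing particular to the family is read from it. Both AB comparisons use the same LPS libraries.

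Summed markers of other cells differed in level between the groups, and a sum may rest on a few of its genes. The 6 neutrophil and granulocyte precursor markers, none of them at 0, summed to 1830 to 2660 CPM in UVABs, 2140 to 2850 CPM in STSABs, 1150 to 1630 CPM in LPS and 650 to 799 CPM in Con, so each AB library was above each LPS library. The 7 dendritic cell markers summed to 55.1 to 77.8 CPM in UVABs, 60.8 to 77.4 CPM in STSABs, 51.0 to 60.7 CPM in LPS and 76.2 to 81.7 CPM in Con. Only 5 of these 7 had enough counts to test. Mean counts were under 10 for 3 of them in UVABs and STSABs and for 2 in LPS and Con. The 5 B cell markers summed to at most 7.18 CPM, the 5 stromal markers to at most 7.68 CPM and the T and NK cell markers, 4 of 5 of them in the table, to at most 1.95 CPM in any library; among these, Cd3e was at 0 in STSABs and LPS and Ncr1 in Con. The part of these cells in the receptor levels was not tested.

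**Figure D1:**
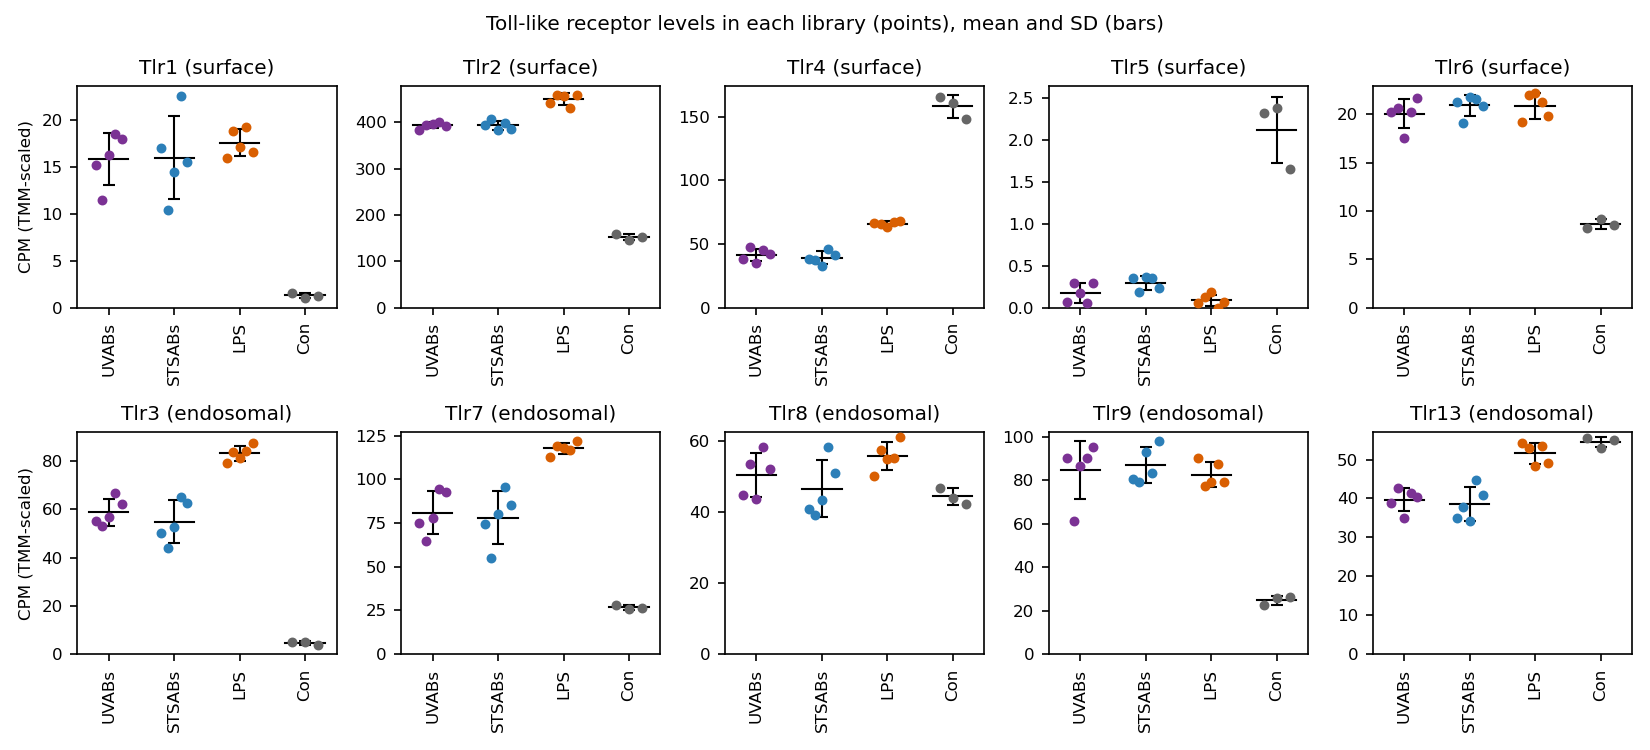
Level of each Toll-like receptor in CPM (vertical axis, from 0, TMM-scaled) in each library of the UVABs, STSABs, LPS and Con groups. Points are libraries, long lines the mean and whiskers the SD. Tlr4 and Tlr5 are highest in Con, whereas Tlr1, Tlr2, Tlr3, Tlr6, Tlr7 and Tlr9 are lowest there. Tlr2, Tlr3, Tlr4, Tlr7 and Tlr13 of all AB libraries lie below all LPS libraries.

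Tlr4, the receptor for LPS itself, was lowest in the AB groups, intermediate in LPS and highest in Con. It had 38.3, 47.4, 35.3, 44.9 and 41.8 CPM in the UVABs libraries, 38.5, 37.1, 32.8, 46.0 and 41.7 CPM in the STSABs libraries, 66.4, 66.0, 63.1, 67.1 and 67.9 CPM in the LPS libraries, and 166, 161 and 148 CPM in the Con libraries. No AB library reached an LPS library and no LPS library reached a Con library, so only the 2 AB groups overlapped. Tlr4 differed by -0.67 ± 0.08 between UVABs and LPS (adjusted p = 2.83e-07) and by -0.75 ± 0.08 between STSABs and LPS (adjusted p = 5.43e-08). Between LPS and Con it differed by -1.26 ± 0.08 (adjusted p = 4.47e-12), and this fall had the same direction under every scaling tried, at -1.54 with upper-quartile scaling and -2.0 with library totals alone.

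Tlr2, which pairs with Tlr1 or Tlr6 to bind bacterial lipopeptides, had the highest level per kilobase of transcript in every group. Its level was 384, 394, 397, 401 and 392 CPM in UVABs, 394, 407, 383, 399 and 386 CPM in STSABs, 443, 460, 457, 432 and 460 CPM in LPS, and 158, 147 and 152 CPM in Con. The LPS libraries were all above the AB libraries, and those were all above Con. Tlr2 fell by a small amount in both AB groups, by 0.19 ± 0.04 on the log2 scale in UVABs against LPS (adjusted p = 0.000174) and by the same rounded value and SE in STSABs against LPS (adjusted p = 0.000177). It rose by 1.56 ± 0.05 in LPS against Con (adjusted p = 1.82e-18). The ratio of Tlr2 to Tlr4, each per kilobase of transcript, does not depend on how libraries are scaled. It was 13.0 ± 1.49 in UVABs (SD, n = 5), 13.7 ± 1.67 in STSABs (SD, n = 5), 9.22 ± 0.413 in LPS (SD, n = 5) and 1.31 ± 0.0764 in Con (SD, n = 3), and every AB library was above every LPS library.

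Tlr1 and Tlr6, the partners of Tlr2, are close relatives, and their counts were not whole numbers in 18 of 18 libraries. Their sum was whole, within 0.005, in 18 of 18 libraries, and for each of them the other was the only gene in the table that completed it in this way. In the GENCODE M21 transcripts the pair shared 259 words of 100 bases, which is 7.89% of the words of Tlr1 and 7.09% of those of Tlr6. No other gene shared such a word with a receptor. The longest identical stretch is 229 bases long and lies inside both coding sequences; its first 60 bases are shown because a read wholly inside it matches both genes.
Tlr1 and Tlr6: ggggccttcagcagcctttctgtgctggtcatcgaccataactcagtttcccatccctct
The separate values of Tlr1 and Tlr6 are therefore uncertain to the extent that the counting split shared reads.

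Tlr1 ranged from 11.5 to 18.5 CPM in UVABs, 10.4 to 22.6 CPM in STSABs, 16.0 to 19.3 CPM in LPS and 1.05 to 1.56 CPM in Con. Tlr6 ranged from 17.6 to 21.7 CPM in UVABs, 19.1 to 21.8 CPM in STSABs, 19.2 to 22.2 CPM in LPS and 8.22 to 9.21 CPM in Con. For both genes the AB and LPS libraries overlapped and all lay above Con. Tlr1 rose by 3.76 ± 0.23 in LPS against Con (adjusted p = 1.01e-12) and Tlr6 by 1.27 ± 0.08 (adjusted p = 1.12e-12). Neither was called in an AB group against LPS: the difference for Tlr1 was -0.15 ± 0.15 with UVABs (adjusted p = 0.402) and -0.13 ± 0.14 with STSABs (adjusted p = 0.450). For Tlr6 it was -0.06 ± 0.06 with UVABs (adjusted p = 0.480) and 0.00 ± 0.06 with STSABs (adjusted p = 0.969). Counted together as a single gene, which removes the split, Tlr1 and Tlr6 differed by -0.10 between UVABs and LPS (adjusted p = 0.322), by -0.06 between STSABs and LPS (adjusted p = 0.565) and by 1.95 between LPS and Con (adjusted p = 8.1e-14).

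Tlr5, the receptor for bacterial flagellin, was near the limit of detection outside Con. It had 1, 5, 3, 1 and 5 counts in the UVABs libraries, 6, 3, 6, 6 and 4 counts in the STSABs libraries, 1, 2, 3, 0 and 1 counts in the LPS libraries, and 64, 66 and 46 counts in the Con libraries. Con was far above the other groups, which overlapped. Tlr5 fell by 4.54 ± 0.37 on the log2 scale in LPS against Con (adjusted p = 1.78e-10). It differed by 1.01 ± 0.61 between UVABs and LPS (adjusted p = 0.162) and was called higher in STSABs than in LPS, at 1.72 ± 0.54 (adjusted p = 0.00998). That call rests on 25 counts in all STSABs libraries against 7 in all LPS libraries, and it was lost with replicates 1 to 3 only (1.26, adjusted p = 0.112). Tlr5 passed the filter on low counts only through Con, and with the STSABs and LPS libraries alone it was not tested, so nothing is read from this call. The fall against Con comes from the group that let the gene pass, so it is given as a description of the counts.

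The promoter stretches of Tlr3 and Tlr5, the receptors with the largest rise and the largest fall in LPS against Con, are shown as the ends of the family's range. They are the 250 bases before the gene start, 5′ to 3′ on the gene's strand, from RefSeq on GRCm38.p6, whereas the reads were aligned to mm39. The Tlr3 stretch is chr8:45410381-45410630 on the minus strand and the Tlr5 stretch chr1:182954538-182954787 on the plus strand. Capitals mark a match to an NF-kB type motif, GGGA and TTCC with any 2 bases between them.
Tlr3: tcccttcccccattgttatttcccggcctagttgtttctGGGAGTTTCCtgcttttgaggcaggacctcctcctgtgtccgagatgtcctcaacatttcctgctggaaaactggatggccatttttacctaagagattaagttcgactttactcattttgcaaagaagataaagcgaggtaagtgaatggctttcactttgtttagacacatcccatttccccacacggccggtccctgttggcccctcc
Tlr5: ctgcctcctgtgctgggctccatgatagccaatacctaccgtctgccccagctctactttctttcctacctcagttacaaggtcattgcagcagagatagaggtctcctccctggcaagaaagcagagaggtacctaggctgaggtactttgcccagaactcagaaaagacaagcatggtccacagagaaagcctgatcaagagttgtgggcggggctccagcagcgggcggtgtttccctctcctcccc
Both strands were searched for this motif, for an interferon-stimulated response element type (GAAA and GAAA with any 2 bases between them), for TTCNNNGAA (STAT type) and for GAGGAAGT (PU.1 type). The Tlr3 stretch held a single match, to the NF-kB type, and the Tlr5 stretch held no match to any of the 4 motifs. Of the 8 receptors with an entry, 4 held no match, namely Tlr5, which fell in LPS against Con, Tlr2 and Tlr9, which rose, and Tlr13, which was not called. The searched NF-kB type pattern was found for Tlr3 alone, and Tlr1 and Tlr6, which also rose, and Tlr8, whose direction depended on the scaling, held other motifs. Only this pattern was searched for NF-kB, so a stretch without a match may hold a close variant. The Tlr2 stretch holds ggggaattcc, which has G where the pattern has A. Of all 32851 RefSeq promoter stretches of that length, 1.21% held the NF-kB type, 2.98% the interferon-stimulated response element type, 7.02% TTCNNNGAA and 2.44% GAGGAAGT. These are matches of letters, not measured binding. Tlr4 and Tlr7 had no entry.

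Tlr3, the endosomal receptor for double-stranded RNA and the family member that signals through the adaptor TRIF rather than MyD88, had the largest rise of the family in LPS. It had 55.0, 53.1, 56.7, 66.8 and 62.3 CPM in UVABs, 50.0, 43.8, 52.9, 65.2 and 62.7 CPM in STSABs, 79.4, 83.7, 81.3, 84.3 and 87.7 CPM in LPS, and 4.85, 5.16 and 3.87 CPM in Con. Every AB library lay below every LPS library and above every Con library. The rise in LPS against Con was 4.17 ± 0.13 (adjusted p = 5.72e-18). The AB groups were lower than LPS by 0.50 ± 0.09 in UVABs (log2 -0.50, adjusted p = 4.68e-05) and by 0.60 ± 0.09 in STSABs (log2 -0.60, adjusted p = 5.45e-06).

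Tlr7, an endosomal receptor for single-stranded RNA, followed the same order. Its level was 75.1, 64.8, 77.9, 94.6 and 92.5 CPM in UVABs, 74.2, 54.7, 80.2, 95.5 and 85.5 CPM in STSABs, 113, 119, 118, 117 and 122 CPM in LPS, and 28.3, 25.7 and 26.4 CPM in Con. The AB libraries again lay between the other groups with no overlap, with replicates 4 and 5 the highest of each AB group. Tlr7 differed by -0.54 ± 0.11 between UVABs and LPS (adjusted p = 0.000183), by -0.60 ± 0.11 between STSABs and LPS (adjusted p = 6.56e-05) and by 2.14 ± 0.14 between LPS and Con (adjusted p = 1.85e-12). Its counts were also not whole in 18 of 18 libraries, and no single gene of the table completed them. The source of these fractions is not known here.

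Tlr9, the receptor for unmethylated CpG DNA, rose in LPS against Con and was not called between either AB group and LPS. It had 90.3, 61.3, 86.7, 90.0 and 95.1 CPM in UVABs, 80.5, 79.0, 93.1, 83.4 and 98.1 CPM in STSABs, 90.1, 77.3, 78.9, 87.3 and 79.0 CPM in LPS, and 22.5, 25.6 and 26.3 CPM in Con. Except for the second UVABs library, which was low, the AB libraries reached or exceeded the lowest LPS library, and all of them were above Con. The differences were 0.04 ± 0.09 between UVABs and LPS (95% interval -0.15 to 0.23, adjusted p = 0.751), 0.07 ± 0.09 between STSABs and LPS (95% interval -0.12 to 0.26, adjusted p = 0.507) and 1.74 ± 0.11 between LPS and Con (adjusted p = 3.48e-12). Without the second library of both AB groups they were 0.13 with UVABs (adjusted p = 0.0584) and 0.11 with STSABs (adjusted p = 0.131).

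Tlr13, which in mice binds bacterial ribosomal RNA, had 38.9, 42.8, 35.0, 41.3 and 40.5 CPM in UVABs, 35.0, 37.8, 34.2, 44.8 and 40.9 CPM in STSABs, 54.2, 53.0, 48.3, 53.4 and 49.2 CPM in LPS, and 55.5, 53.0 and 55.1 CPM in Con. The AB libraries were all below both other groups, which overlapped. It fell in UVABs against LPS by 0.38 ± 0.07 on the log2 scale (adjusted p = 6.26e-05) and in STSABs against LPS by 0.42 ± 0.07 (adjusted p = 1.8e-05). Between LPS and Con it differed by -0.08 ± 0.08 (95% interval -0.24 to 0.08, adjusted p = 0.338), but it was called lower with upper-quartile scaling (-0.36) and with library totals alone (-0.82).

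Tlr8, an endosomal receptor that in humans binds single-stranded RNA, moved least among the called receptors in LPS. It ranged from 43.5 to 58.2 CPM in UVABs, 39.2 to 58.2 CPM in STSABs, 50.2 to 61.2 CPM in LPS and 42.3 to 46.8 CPM in Con. The AB libraries overlapped with both LPS and Con. Tlr8 rose in LPS against Con by 0.33 ± 0.11 (adjusted p = 0.0079) with TMM factors, was not called with upper-quartile scaling (0.05, adjusted p = 0.648) and was called lower with library totals alone (-0.41, adjusted p = 0.00129). It differed by -0.15 ± 0.09 between UVABs and LPS (adjusted p = 0.197) and was called lower in STSABs than in LPS, at -0.26 ± 0.09 (adjusted p = 0.0234). The STSABs call was lost when STSABs replicate 1 (-0.22), 2 (-0.20) or 3 (-0.24) or LPS replicate 5 (-0.22) was left out, and with library totals alone (-0.21).

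**Figure D2:**
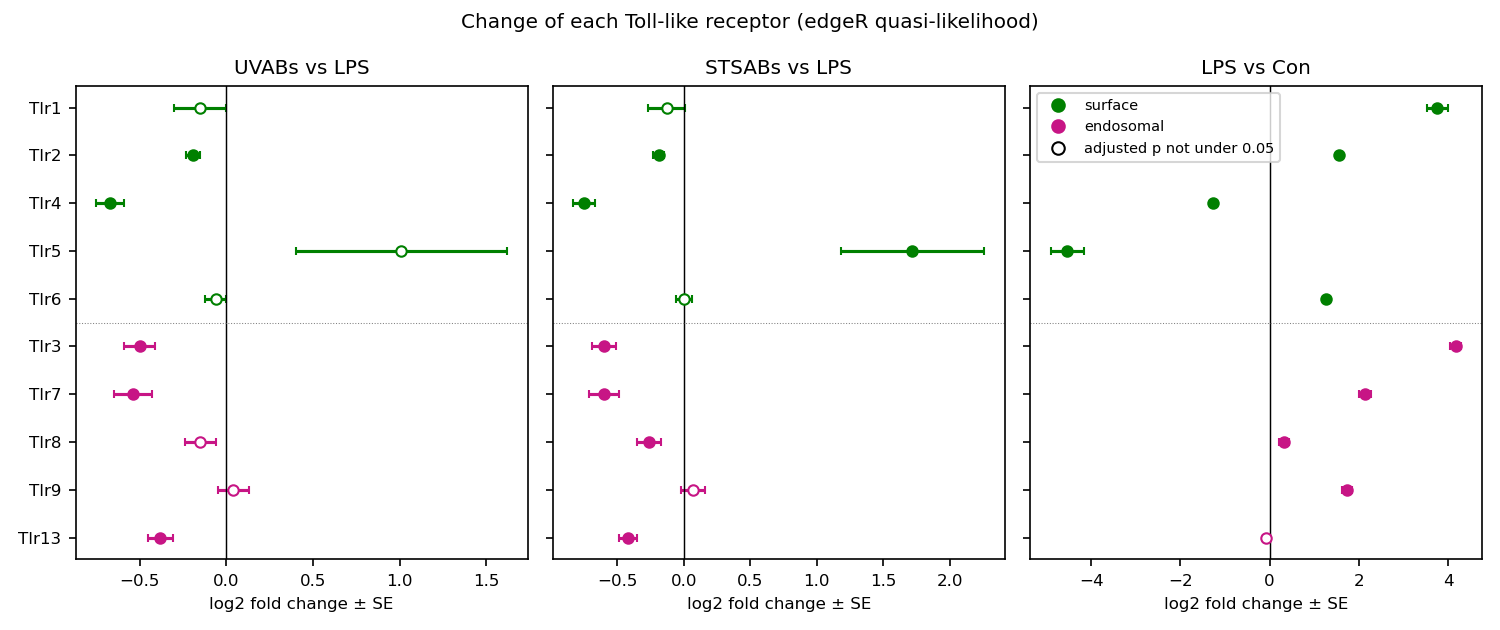
Log2 fold change of each receptor (horizontal axis, with SE bars) for UVABs over LPS, STSABs over LPS and LPS over Con; the horizontal scales differ between panels. Green marks surface and magenta endosomal receptors, and open circles are receptors whose adjusted p was not under 0.05. Tlr2, Tlr3, Tlr4, Tlr7 and Tlr13 lie left of 0 with filled circles in both AB panels, and Tlr4 and Tlr5 lie left of 0 in the LPS panel.

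By location, in LPS against Con 3 of 5 surface receptors were higher and 2 of 5, Tlr4 and Tlr5, lower. Of the endosomal receptors 4 of 5 were higher, 0 lower and 1 not called. Of all genes tested, 40.0% were higher and 43.0% lower. Tlr5 was tested only through its counts in Con, where it was high, so a fall among surface receptors is read from Tlr4 alone. The median log2 fold change was 1.74 for the endosomal and 1.27 for the surface receptors, a difference of 0.47, and that of all genes tested was -0.03. The surface median and this difference include Tlr5. For UVABs against LPS, 3 of 5 endosomal and 2 of 5 surface receptors were lower, where 57.4% of all genes were called and 28.8% were lower. The medians were -0.38 and -0.15, and the all-gene median was 0. For STSABs against LPS, 4 of 5 endosomal receptors were lower, while of the surface receptors 2 were lower and 1, Tlr5 with its few counts, higher. Of all genes, 57.4% were called, 29.0% lower and 28.4% higher. The medians were -0.42 for the endosomal and -0.13 for the surface class, and the all-gene median was -0.01. The surface medians of both AB comparisons also include Tlr5. With 5 genes a class these are descriptions of the receptors, and the difference between the classes was not tested.

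Per kilobase of transcript, on which genes can be compared, Tlr2 led the family in every group, and the order behind it changed. Per kilobase of coding sequence, Tlr2 had 64.8 and Tlr4 63.1 CPM per kb in Con and their libraries overlapped, so the lead of Tlr2 in Con depends on the length used. With the transcript lengths of GENCODE M21, in the AB groups Tlr9 came next after Tlr2, at 24.3 CPM per kb in UVABs and 25.0 in STSABs, ahead of Tlr7 at 20.8 in UVABs and 20 in STSABs, though these neighbours overlapped between libraries. Tlr4 had 10.2 CPM per kb in UVABs and 9.62 in STSABs, overlapping with Tlr13 at 9.78 in UVABs and 9.49 in STSABs. The order in LPS was Tlr2 (149 CPM per kb), Tlr7 (30.3), Tlr9 (23.7), Tlr3 (18.9), then Tlr8 and Tlr4 (both 16.2, overlapping), Tlr13 (12.7), then Tlr1 (5.82) and Tlr6 (5.68, overlapping), and Tlr5 (0.0266). In Con it was Tlr2 (50.5 CPM per kb), Tlr4 (38.8), Tlr13 (13.4), Tlr8 (12.9), Tlr9 (7.12), Tlr7 (6.87), Tlr6 (2.36), Tlr3 (1.05), Tlr5 (0.663) and Tlr1 (0.426). In Con, Tlr13 overlapped Tlr8 and Tlr9 overlapped Tlr7. So Tlr4 had rank 6 in UVABs, STSABs and LPS and rank 2 in Con; with coding length in place of transcript length it had rank 5 in those groups and rank 2 in Con.

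Summed over the 5 endosomal receptors, the level was 82.9 ± 8.35 CPM per kb in UVABs, 80.5 ± 10.1 in STSABs, 102 ± 2.02 in LPS (SD, n = 5 each) and 41.4 ± 0.608 in Con (SD, n = 3). Summed over the 5 surface receptors it was 152 ± 3.21 in UVABs, 151 ± 4.16 in STSABs, 177 ± 3.96 in LPS (SD, n = 5 each) and 92.7 ± 3.49 in Con (SD, n = 3). The endosomal share of the family, which does not depend on scaling, ranged from 32.3% to 37.3% in UVABs, 30.6% to 37.4% in STSABs, 35.7% to 37.6% in LPS and 30.4% to 31.4% in Con. The LPS and UVABs libraries were above Con, while the lowest STSABs library overlapped with it. With coding length the shares were 29.7% to 36.4% in STSABs and 27.3% to 28.3% in Con, with no overlap. Within the surface class, Tlr4 made up 4.35 ± 0.524% of the family in UVABs, 4.14 ± 0.367% in STSABs, 5.81 ± 0.166% in LPS (SD, n = 5 each) and 28.9 ± 1.06% in Con (SD, n = 3). Tlr2 made up 55.8 ± 2.15% in UVABs, 56.5 ± 3.29% in STSABs, 53.5 ± 0.940% in LPS (SD, n = 5 each) and 37.7 ± 0.819% in Con (SD, n = 3).

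**Figure D3:**
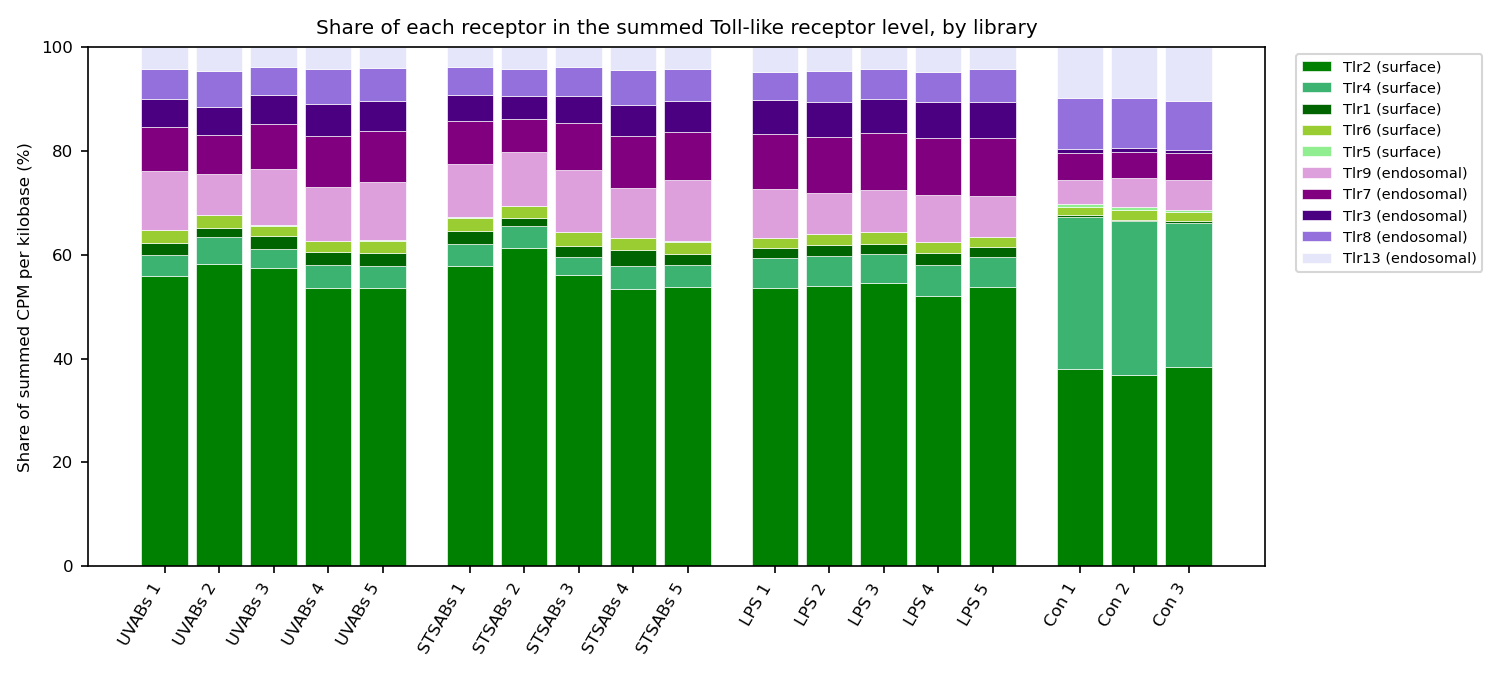
Share of each receptor in the summed CPM per kilobase of the 10 receptors (vertical axis, in %), with a bar for each library of UVABs, STSABs, LPS and Con; green shades are surface and purple shades endosomal receptors. Tlr4 takes on average 4.35% in UVABs, 4.14% in STSABs, 5.81% in LPS and 28.9% in Con, while Tlr2 takes 55.8% in UVABs, 56.5% in STSABs, 53.5% in LPS and 37.7% in Con.

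Changes against Con depended on the scaling of the libraries. The median of all genes in LPS against Con was -0.03 with TMM factors, -0.31 with upper-quartile scaling and -0.78 with library totals alone, and the share of calls that were higher was 48.2%, 36.0% and 21.2% under these settings. Against that shift, Tlr1, Tlr2, Tlr3, Tlr6, Tlr7 and Tlr9 were called higher and Tlr4 lower under each of the 4 scalings run. The smallest rise was that of Tlr6, at 0.52 with library totals alone. Tlr5 was also called lower under each, but it passed the filter only through Con, so nothing is read from that. Only Tlr8 and Tlr13 changed their call. The class medians became 0.99 for surface and 1.46 for endosomal receptors with upper-quartile scaling, and 0.52 and 0.99 with library totals alone.

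**Figure D4:**
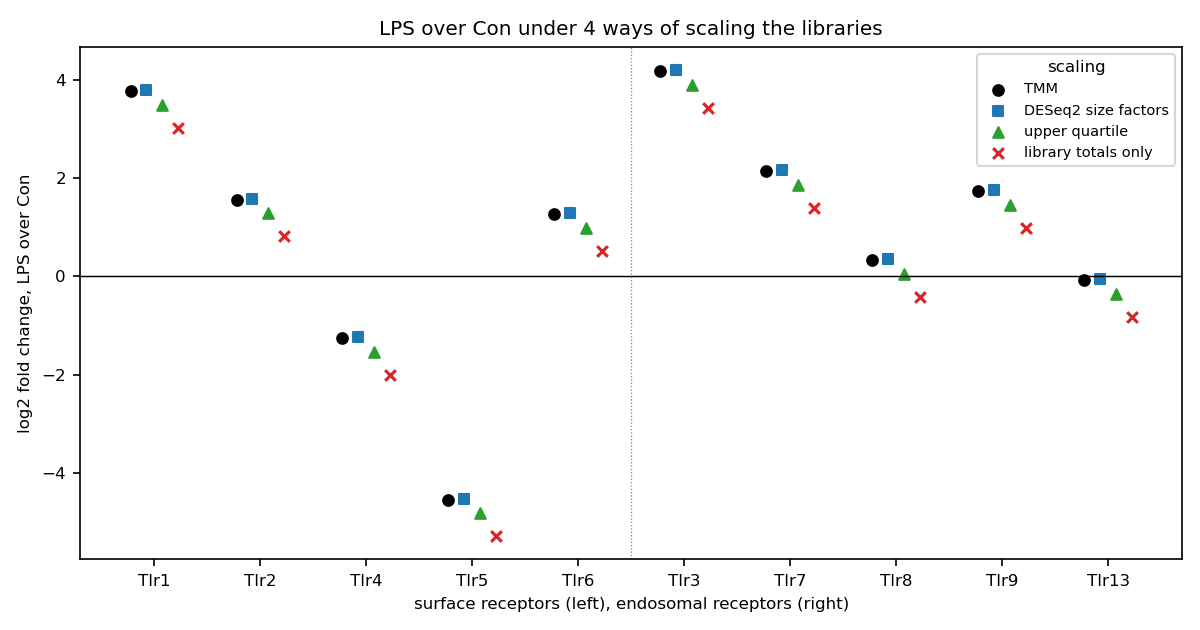
Log2 fold change of LPS over Con (vertical axis) for each receptor under TMM factors, DESeq2 size factors, upper-quartile scaling and library totals alone. All receptors shift down together from TMM to library totals; Tlr8 crosses 0, from 0.33 to -0.41, and Tlr13 goes to -0.82, while the other 8 stay on their side of 0.

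Set against Con, AB macrophages had higher Tlr1, Tlr2, Tlr3, Tlr6, Tlr7 and Tlr9 and lower Tlr4, Tlr5 and Tlr13, with Tlr8 not called, for both kinds of bodies. With UVABs 6 receptors were higher and 3 lower, where 82.6% of all genes were called, 40.2% higher and 42.4% lower. With STSABs 6 were also higher and 3 lower, where 82.6% were called, 40.0% higher and 42.6% lower. Tlr4 differed by -1.93 ± 0.09 between UVABs and Con (adjusted p = 2.54e-15) and by -2.01 ± 0.09 between STSABs and Con (adjusted p = 1.23e-15). Tlr3 differed by 3.67 ± 0.13 in UVABs (adjusted p = 5.9e-17) and by 3.57 ± 0.13 in STSABs (adjusted p = 9.46e-17). Tlr13 differed by -0.46 ± 0.08 in UVABs (adjusted p = 8.82e-06) and by -0.50 ± 0.08 in STSABs (adjusted p = 2.72e-06). Tlr8 differed by 0.18 ± 0.11 in UVABs (adjusted p = 0.119) and by 0.07 ± 0.11 in STSABs (adjusted p = 0.555) with TMM factors, but was called lower with library totals alone, at -0.52 in UVABs and -0.63 in STSABs. With upper-quartile scaling, 36.7% of the calls in UVABs against Con and 36.5% in STSABs against Con were higher, with library totals alone 22.7% and 22.8%, and with TMM factors 48.7% and 48.4%. In both comparisons Tlr5 passed the filter only through Con, and the number of receptors called is near the share of all genes. These comparisons share the Con libraries with that of LPS against Con.

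No receptor was called between macrophages given UV-induced and STS-induced bodies. For UVABs against STSABs edgeR called 0 receptors, where 0% of the 12465 genes were called. At an unadjusted p under 0.05 there were 198 genes by edgeR, 151 by DESeq2 and 191 by limma-voom, 0 of them receptors by each tool, and DESeq2 and limma-voom also called 0 genes after adjustment. The 95% intervals of the log2 difference were -0.08 to 0.08 for Tlr2, -0.08 to 0.25 for Tlr4, -0.09 to 0.28 for Tlr3, -0.17 to 0.28 for Tlr7, -0.23 to 0.15 for Tlr9 and -0.10 to 0.19 for Tlr13. They were wider for Tlr1, at -0.32 to 0.29, and for Tlr5, at -1.67 to 0.25, with 1 to 5 counts per library in UVABs and 3 to 6 in STSABs. Same-numbered libraries of the 2 AB groups deviated together, and the intervals above, from the fit without a block, include this shared spread. With the number as a block in a fit of these groups alone 0 genes were called by edgeR, with 457 at an unadjusted p under 0.05, 2 of them receptors (Tlr3 and Tlr8).

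Within the AB groups, replicates 4 and 5 were closer to LPS than replicates 1 to 3 for several receptors; the labels name no batch, but spell these 2 UVABs libraries differently. Replicates 4 and 5 were both above replicates 1 to 3 for 3 of 10 receptors in UVABs (Tlr1, Tlr3 and Tlr7), for 5 of 10 in STSABs (Tlr3, Tlr4, Tlr7, Tlr8 and Tlr13) and for 2 of 10 in LPS (Tlr3 and Tlr4). No such count was made over all genes, so nothing particular to the receptors is read from these counts. Same-numbered UVABs and STSABs libraries deviated together, so the counts of these groups are not independent. Tlr7, for example, averaged 93.5 CPM in replicates 4 and 5 and 72.6 CPM in replicates 1 to 3 of UVABs, 90.5 and 69.7 CPM in those of STSABs, and 120 and 117 CPM in those of LPS. The falls against LPS were present in both subsets. For UVABs against LPS, replicates 4 and 5 alone gave -0.64 for Tlr4, -0.41 for Tlr3, -0.35 for Tlr7, -0.33 for Tlr13 and -0.17 for Tlr2, and replicates 1 to 3 alone gave -0.69, -0.56, -0.68, -0.41 and -0.20 for the same genes, all called. For STSABs against LPS, replicates 4 and 5 alone gave -0.62 for Tlr4, -0.43 for Tlr3, -0.40 for Tlr7, -0.26 for Tlr13 and -0.18 for Tlr2, and replicates 1 to 3 alone gave -0.84, -0.73, -0.74, -0.53 and -0.19, again all called. Tlr8 in STSABs was called with replicates 1 to 3 (-0.39, adjusted p = 0.00162) but not with replicates 4 and 5 (-0.09, adjusted p = 0.395).

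**Figure D5:**
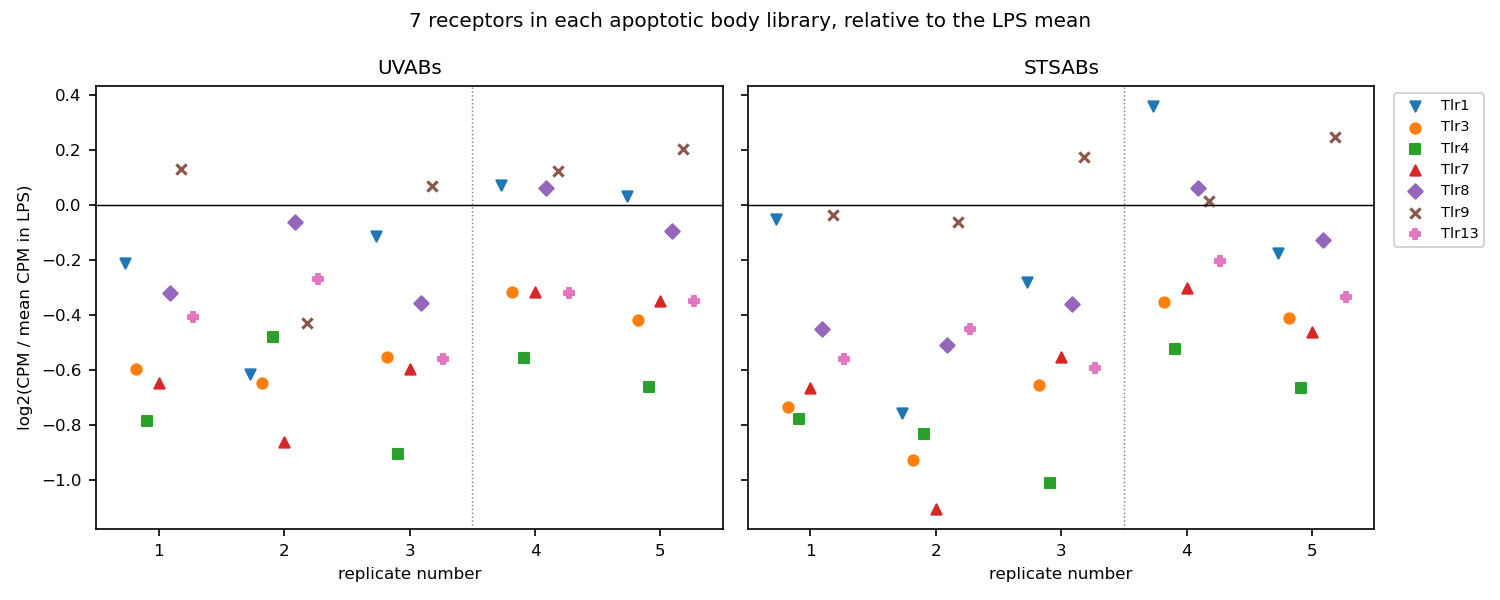
Log2 ratio of the CPM in each UVABs (left) and STSABs (right) library to the mean CPM of the LPS libraries (vertical axis), by replicate number (horizontal axis), for 7 receptors. A dotted line separates replicates 1 to 3 from 4 and 5; Tlr3, Tlr4, Tlr7 and Tlr13 are below 0 in all 10 libraries, and Tlr9 lies around 0 except in the second UVABs library.

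The proteins that deliver ligands, fold and move the receptors, cut them in endosomes and pass on the signal were counted from 6 lists with 48 tested genes. In LPS against Con 32 of the 48 were higher and 11 lower, with a median of 0.67, where 40.0% of all genes were higher and 43.0% lower. In UVABs against LPS 11 were higher and 15 lower, with a median of -0.04, and in STSABs against LPS 11 were higher and 14 lower, with a median of -0.05. In each of these 57.4% of all genes were called, so the AB counts, 26 and 25 of 48, are near the background and show nothing particular to the pathway. The counts of the single lists below have the same background, 83.0% called in LPS against Con and 57.4% in each AB group against LPS. None of the 48 was called in UVABs against STSABs, where no gene was called by edgeR, DESeq2 or limma-voom. The genes named below are, for each list and comparison, at most 3 called genes with the smallest adjusted p. For some of them, values in other comparisons are also given.

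Among 7 accessory proteins of the surface receptors, 4 rose and 2 fell in LPS against Con, and 3 rose and 3 fell in each AB group against LPS. Cd14, which hands LPS to the Tlr4 complex, averaged 723 ± 58.7 CPM in LPS and 149 ± 1.54 CPM in Con (log2 2.28, adjusted p = 2.39e-11). Ly96 (MD-2), the LPS-binding partner of Tlr4, averaged 11 ± 0.568 CPM in LPS and 2.89 ± 0.227 CPM in Con (log2 1.92, adjusted p = 4.06e-11). Both thus rose in the comparison in which Tlr4 fell. Against LPS they parted: Cd14 was higher in UVABs (log2 0.69) and STSABs (log2 0.61), and Ly96 was lower (log2 -0.44 in UVABs and -0.37 in STSABs). Cnpy4, a chaperone-related protein of Tlr4, fell in LPS against Con (log2 -1.63, adjusted p = 3.71e-11). It was higher in the AB groups than in LPS (log2 0.5 in UVABs and 0.44 in STSABs). In the AB groups against LPS, Cd180, a receptor-like relative of Tlr4, fell by 1.01 in UVABs and 1.04 in STSABs, Cd36, a partner of Tlr2 with Tlr6, fell by 0.73 and 0.78, and Lbp, the LPS-binding protein, rose by 0.80 and 0.82, all on the log2 scale.

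Of 8 folding and trafficking genes, 6 rose and 2 fell in LPS against Con, and 1 rose and 2 fell in each AB group against LPS. Lrrc59 (endoplasmic reticulum, trafficking of endosomal receptors) rose by 1.43 in LPS against Con, and it fell by 0.50 in UVABs and 0.53 in STSABs against LPS. Ap3b1, an adaptor subunit of endosomal sorting, rose by 1.30 and Rab11a, a recycling GTPase, by 0.76 in LPS against Con. Rab11a was also higher in the AB groups than in LPS, by 0.20 in UVABs and 0.16 in STSABs, and Hsp90b1, the chaperone gp96 of most Toll-like receptors, fell by 0.27 in UVABs and 0.31 in STSABs. Of 9 genes of receptor cleavage and nucleic acid processing, 5 rose and 2 fell in LPS against Con, and 1 rose and 2 fell in each AB group against LPS. Rnaset2b, an RNase (log2 2.30), rose in LPS against Con, though it has a near-identical copy, Rnaset2a, and is uncertain. The lysosomal nucleases Dnase2a (log2 -1.76) and Pld4 (log2 -1.61) fell in LPS against Con. Pld4 was lower still in UVABs (log2 -0.61) and STSABs (log2 -0.67) against LPS. The protease Ctsb averaged 1800 CPM in UVABs, 1750 CPM in STSABs, 2160 CPM in LPS and 1280 CPM in Con, so it rose in LPS against Con (log2 0.75) and was lower in the AB groups than in LPS (log2 -0.26 in UVABs and -0.31 in STSABs), though above Con. Lgmn, a protease that cuts endosomal receptors, rose in the AB groups against LPS (log2 0.26 in UVABs and 0.20 in STSABs).

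Among 5 tested adaptors, 4 rose and 0 fell in LPS against Con, and 1 rose and 2 fell in each AB group against LPS. Myd88, the adaptor of every family member here except Tlr3, averaged 318 ± 15.2 CPM in UVABs, 322 ± 12.0 CPM in STSABs, 367 ± 11.1 CPM in LPS and 87.7 ± 3.74 CPM in Con. It rose in LPS against Con (log2 2.07, adjusted p = 2.58e-19) and fell in UVABs (log2 -0.21, adjusted p = 0.000368) and STSABs (log2 -0.19, adjusted p = 0.000977) against LPS. Ticam1 (TRIF), the adaptor of Tlr3, rose by 0.99 and Pik3ap1 (BCAP) by 2.51 in LPS against Con. Against LPS, Tirap, which brings Myd88 to the membrane, fell by 0.28 in UVABs and 0.27 in STSABs, and Ticam2 (TRAM), which links Tlr4 to TRIF, rose by 0.46 in UVABs and 0.47 in STSABs.

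Of 11 proximal kinases and ubiquitin ligases, 7 rose and 3 fell in LPS against Con, 3 rose and 3 fell in UVABs against LPS, and 3 rose and 2 fell in STSABs against LPS. In LPS against Con the kinase Ikbke rose by 3.39, the ubiquitin ligase Peli1 by 3.59 and Tab2, a partner of the kinase Map3k7 (TAK1), by 1.24. Against LPS, Irak1 rose by 0.16 in UVABs and 0.19 in STSABs, Ikbke rose by 0.14 and 0.13, and Map3k7 fell by 0.25 and 0.26. Of 8 brakes of the pathway, 6 rose and 2 fell in LPS against Con, and 2 rose and 3 fell in each AB group against LPS. Tnfaip3 (A20), an enzyme that removes ubiquitin, rose by 4.86 and Irak3, a kinase relative without strong activity, by 1.88 in LPS against Con, and the receptor Il1rl1 fell by 2.38. Against LPS, Il1rl1 rose by 0.56 in UVABs and 0.70 in STSABs and Cyld, another enzyme that removes ubiquitin, fell by 0.28 and 0.32. Sigirr, an inhibitory receptor, averaged 1.18 ± 0.209 CPM in UVABs, 1.26 ± 0.380 CPM in STSABs, 0.412 ± 0.0856 CPM in LPS and 5.16 ± 0.893 CPM in Con. It fell in LPS against Con (log2 -3.62), and in the AB groups it was above LPS (log2 1.5 in UVABs and 1.59 in STSABs) and below Con (log2 -2.13 in UVABs and -2.03 in STSABs).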

How the data were processed

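Read counts of polyadenylated RNA were measured in 18 libraries of bone marrow macrophages. Per the labels' protocols, libraries were strand-marked with dUTP and read from both ends. Reads were aligned with HISAT2 to mm39, per the submitters' processing notes. The counting tool, strand setting and annotation are not stated, so overlapping genes on opposite strands cannot be told apart. The authors deposited estimated counts per gene symbol without normalization. Of these 6.35% were not whole, and values were rounded before testing.

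filterByExpr left 12465 genes with 99.97% of the counts. After TMM scaling, the quasi-likelihood F-test of edgeR 4.0.16 (R 4.3.3) was applied to all 18 libraries with group means only, with Benjamini-Hochberg adjustment over all genes at 0.05; the test was also tested on simulated data. Intervals are 95% and come from the fit. CPM used the TMM-scaled totals. Receptor lengths came from GENCODE M21 (the transcript with the longest coding sequence), on another build than mm39. Same-numbered UVABs and STSABs libraries deviated together from their group means, at correlations over genes of 0.116 to 0.54 with 5 of 5 pairs over 0.1, so these numbers were taken as pairs from the data, as the labels name no shared batch. No 2 libraries of a group agreed within sampling noise, with a chi-square of at least 2.30 per gene.

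The receptors and lists were chosen with earlier results of these data known. All receptors were named, with at most 3 called genes per list and comparison by smallest adjusted p, and the 3 genes most correlated with Tlr4 and Tlr7. The second libraries of the AB groups were left out together in an alternative. Other alternatives were upper-quartile scaling, DESeq2 size factors, library totals, DESeq2 1.42.0, limma-voom (limma 3.58.1), no filter, a filter of 1 CPM, only the groups compared, replicates 1 to 3, a term for replicates 4 and 5, the replicate number as a block, coding length and each library left out. Replicates 4 and 5 only, Tlr1 and Tlr6 summed, and the block in a fit of UVABs and STSABs alone were added after seeing the data.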

Additional observations from a re-analysis of the deposited data

Results flagged for a closer look

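Tlr9 in the second UVABs library stood apart from its group. It was at 61.3 CPM, and the other 4 UVABs libraries were between 86.7 and 95.1 CPM, a gap above the critical value of Dixon's test. Of 39 groups of values checked, this was the only 1 past that value, and chance gives about 1 in 20. The same library was lowest in UVABs for Tlr1 (11.5 CPM), Tlr3 (53.1 CPM) and Tlr7 (64.8 CPM), and highest for Tlr4 (47.4 CPM) and Tlr13 (42.8 CPM). Without the second library of both AB groups, Tlr9 differed by 0.13 between UVABs and LPS (edgeR adjusted p = 0.0584) and by 0.03 between UVABs and STSABs (adjusted p = 1).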

How the results depend on the processing

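Of 39 receptor calls in the 5 comparisons that had any, 36 held in every alternative run for them. Tlr8 in LPS against Con and Tlr5 and Tlr8 in STSABs against LPS did not. The 36 include the calls against Con of Tlr5, which passed the filter only through Con. The comparisons share libraries, and no such count was made over all genes, so nothing particular to the receptors is read from it. The count of receptors higher in STSABs against LPS was 0 with only the 2 groups compared, where Tlr5 did not pass the filter, with replicates 1 to 3 only and with replicates 4 and 5 only; with the last, Tlr5 was not tested. Apart from the library totals in LPS against Con below, other counts of receptors called stayed within 1.5 times.

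With upper-quartile scaling the surface and endosomal medians were 0.94 and 1.32 in UVABs against Con, 1.01 and 1.27 in STSABs against Con, and 0.99 and 1.46 in LPS against Con; Tlr8 was -0.09 in UVABs and -0.20 in STSABs against Con. With library totals they were 0.51 and 0.89, 0.58 and 0.85, and 0.52 and 0.99; Tlr8 was -0.52, -0.63 and -0.41, 4 receptors were lower in LPS against Con, and calls over all genes were 2504 higher and 8523 lower in UVABs, 2510 and 8511 in STSABs, and 2365 and 8802 in LPS. The cause of this shift was not tested.

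Uncalled receptors near 0 changed sign. With replicates 1 to 3 only, Tlr9 was -0.04 in UVABs against LPS, Tlr6 was -0.02 in STSABs against LPS, Tlr8 was -0.11 in STSABs against Con and Tlr1 was 0.03 in UVABs against STSABs. With replicates 4 and 5 only, Tlr1 and Tlr6 were 0.03 in UVABs against LPS, Tlr1 was 0.09 in STSABs against LPS, and Tlr2 was 0.02, Tlr4 -0.01, Tlr9 0.03 and Tlr13 -0.07 in UVABs against STSABs. In that last comparison Tlr1 was 0.01 with limma-voom, and Tlr2 was 0.01 and Tlr9 0.03 without the second AB libraries. Leaving out each library gave ranges of -0.14 to 0.14 for Tlr1, -0.01 to 0.01 for Tlr2, -0.05 to 0.14 for Tlr7 and -0.08 to 0.06 for Tlr9 there, -0.01 to 0.13 for Tlr9 in UVABs against LPS, -0.03 to 0.04 for Tlr6 in STSABs against LPS and -0.03 to 0.12 for Tlr8 in STSABs against Con.

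Pairing by replicate number, shown for UVABs and STSABs alone, changed no call there: with the block in a fit of these groups 0 receptors were called. Between other groups 1 of 19 same-numbered pairs correlated above 0.1, so their numbers do not show a pairing. With the replicate number as a block, 9 receptors were called in LPS against Con, 5 in UVABs against LPS and 7 in STSABs against LPS, and Tlr8 in STSABs against Con was -0.04, as with a term for replicates 4 and 5 (-0.04). Depth limits Tlr5, which had 7 counts over all LPS libraries.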

Other observations

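Some genes outside the family had levels most like those of a receptor over the 18 libraries. For Tlr4 they were Kctd12, with a Pearson correlation of log2 CPM of 0.988, Myo1e, with 0.987, and Dock1, with 0.986; over the 15 libraries without Con the correlations were 0.943, 0.952 and 0.946. For Tlr7, the endosomal receptor with the highest mean CPM over all 18 libraries, though below Tlr9 in UVABs (81.0 against 84.7 CPM) and STSABs (78.0 against 86.8 CPM), they were Cybb, a subunit of the phagocyte NADPH oxidase, with 0.995, Sdcbp, with 0.993, and Mitf, with 0.992, and without Con 0.989, 0.972 and 0.975. Cybb averaged 1470 CPM in UVABs, 1450 CPM in STSABs, 1950 CPM in LPS and 529 CPM in Con. The libraries share their groups, and these correlations are descriptions.

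Tlr11 and Tlr12, which are not among the 10 receptors described, were barely counted. Tlr11 averaged 0.725 CPM in UVABs, 0.580 CPM in STSABs, 0.765 CPM in LPS and 1.90 CPM in Con. Tlr12 averaged 0.130 CPM in UVABs, 0.0945 CPM in STSABs, 0.170 CPM in LPS and 1.0 CPM in Con. For both, as for Tlr4 and Tlr5, every Con library was above every other library.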
